A study of Rattus norvegicus with 11 samples.

Results

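The 47 cell cycle and proliferation genes described here were chosen by symbol from the 30560 genes listed for rat striatum at day 3 after intracerebral hemorrhage (ICH), measured by bulk mRNA sequencing with 1 library per rat. Of these genes, 14 act at G1/S or in S phase, when DNA is copied, 32 act in G2 and mitosis, when copied chromosomes are separated, and E2f1, a regulator of entry into S phase, was kept apart. The 11 animals were adult male Sprague-Dawley rats, and bacterial collagenase VII-S, which breaks down vessel walls so that blood enters the tissue, had been put into the right striatum of 9 of them. IC (common hemorrhage, 3 rats) received 0.2 U in 1.0 μL, IS (severe hemorrhage, 3 rats) received 0.6 U in 3.0 μL, and IS-HA (3 rats) received the IS dose followed by catheter aspiration of the hematoma after 6 h. Normal (2 rats) had neither injection nor aspiration, so the needle track and the enzyme cannot be told apart from the blood in any comparison with it, and the catheter cannot be told apart from hematoma removal in IS-HA. IC and IS differ in both the amount and the volume injected. The tissue was ipsilateral striatum, or the matching region in Normal, and the summed level of 8 striatal neuron markers in the 2 Normal rats was 7464.1 and 7464.2 TPM. TPM values are scaled for gene length and library size. Libraries held between 6701301 counts (IS-HA replicate 2) and 18817645 counts (IC replicate 3). At these depths 3 counts equal 0.448 to 0.159 CPM (counts scaled for library size alone), a level given to show depth and not used as a filter.

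Cells enter the division cycle when cyclin D and cyclin E kinases free E2F factors from the retinoblastoma proteins. E2F factors raise genes for origin licensing, nucleotide supply and DNA synthesis, and later a complex of MuvB, B-Myb and Foxm1 raises genes for chromosome condensation, the spindle and cell cleavage, many through a promoter element called the cell cycle genes homology region (CHR). In the adult striatum most neurons no longer divide, whereas microglia, astrocytes, oligodendrocyte precursors, endothelium and leukocytes arriving from blood can divide after injury. In bulk tissue, more cells of a type and more RNA per cell cannot be told apart.

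Promoter sequences were available from RefSeq (build GRCr8, a later assembly than the build named for the deposited files) for 36 of the 47 members, with 37 windows because Kif2c has 2. The 250 bases before each start site were searched on both strands for the CHR (TTTGAA or TTCGAA and their reverse complements), the CCAAT box (CCAAT or ATTGG) and an E2F motif of 8 letters (TTTCGCGC, TTTGGCGC, TTTCCCGC or TTTGCCGC and their reverse complements). Promoters of 6 members are shown for genes that changed in contrasting ways: Cdk1 and Ccnb2 among the mitotic members with the highest fold changes, Mcm2 and Mcm5 for the replicative helicase, and Ccne1 and Anln, which had lower fold changes than most members of their sets or fell. These examples were picked after their values were seen. Sequences run 5′ to 3′ on the strand of the gene, end at the base before the start site, and have every motif match in capitals.
Cdk1, chr20:19265043-19265292, plus strand: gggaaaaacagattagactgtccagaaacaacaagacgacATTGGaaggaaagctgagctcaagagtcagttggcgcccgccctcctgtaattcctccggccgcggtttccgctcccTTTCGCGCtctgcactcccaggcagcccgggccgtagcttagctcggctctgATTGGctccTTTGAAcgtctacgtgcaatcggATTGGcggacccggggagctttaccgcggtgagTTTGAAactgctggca
Ccnb2, chr8:79981659-79981908, minus strand: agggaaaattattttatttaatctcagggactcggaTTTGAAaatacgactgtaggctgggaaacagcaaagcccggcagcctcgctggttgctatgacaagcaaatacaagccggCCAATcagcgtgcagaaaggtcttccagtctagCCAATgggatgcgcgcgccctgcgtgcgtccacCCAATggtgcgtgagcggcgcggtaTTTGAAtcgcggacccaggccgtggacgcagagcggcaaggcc
Mcm2, chr4:122918095-122918344, minus strand: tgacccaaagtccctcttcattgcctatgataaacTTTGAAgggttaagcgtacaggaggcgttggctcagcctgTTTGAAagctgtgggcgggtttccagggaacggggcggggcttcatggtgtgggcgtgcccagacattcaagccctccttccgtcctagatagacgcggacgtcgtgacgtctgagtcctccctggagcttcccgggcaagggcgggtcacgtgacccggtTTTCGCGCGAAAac
Mcm5, chr19:13488563-13488812, plus strand: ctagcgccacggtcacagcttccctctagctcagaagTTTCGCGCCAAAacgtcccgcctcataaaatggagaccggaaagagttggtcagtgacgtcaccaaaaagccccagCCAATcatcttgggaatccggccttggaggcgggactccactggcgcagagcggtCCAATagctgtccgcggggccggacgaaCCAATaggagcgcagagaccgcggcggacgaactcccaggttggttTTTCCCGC
Ccne1, chr1:99927910-99928159, minus strand: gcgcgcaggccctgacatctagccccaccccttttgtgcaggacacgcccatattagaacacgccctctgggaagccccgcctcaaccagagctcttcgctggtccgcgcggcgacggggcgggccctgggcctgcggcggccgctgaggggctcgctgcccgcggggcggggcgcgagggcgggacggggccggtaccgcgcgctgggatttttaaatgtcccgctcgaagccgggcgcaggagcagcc
Anln, chr8:29197514-29197763, minus strand: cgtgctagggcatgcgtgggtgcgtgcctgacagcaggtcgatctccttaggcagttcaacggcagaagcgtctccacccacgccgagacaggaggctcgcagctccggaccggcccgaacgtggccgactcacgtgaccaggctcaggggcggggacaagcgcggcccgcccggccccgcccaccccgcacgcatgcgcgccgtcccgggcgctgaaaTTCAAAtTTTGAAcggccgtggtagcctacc

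The E2F motif was present in 5 of 10 S phase windows (50.0%, exact binomial 95% interval 18.7 to 81.3%), in 1 of 27 mitotic windows (3.70%, 0.0937 to 19.0%) and in 580 of 33469 windows of all promoters (1.73%). The S phase windows with a match were those of the helicase genes Mcm2, Mcm5, Mcm6 and Mcm7 and of Tyms, and the mitotic match was in Cdk1. The CHR stood in 12 of 27 mitotic windows (44.4%, 25.5 to 64.7%), 2 of 10 S phase windows (20.0%, 2.52 to 55.6%) and 17.4% of all windows. CCAAT boxes were in 18 of 27 mitotic windows (66.7%), 7 of 10 S phase windows (70.0%) and 34.0% of all windows. Cdk1 had 2 CHR, 3 CCAAT and 1 E2F match, Ccnb2 carried 2 CHR and 3 CCAAT matches, Ccne1 carried none, and Anln had 2 CHR matches and no CCAAT box. Some matches overlap, as Mcm2, Mcm5 and Mcm6 each hold E2F matches on opposite strands that share letters, and the CCAAT and E2F matches of Mcm7 and the CHR and CCAAT matches of Mki67 share letters. In the 100 bases before the start, the E2F motif was in 40% of S phase, 0% of mitotic and 0.771% of all windows, the CHR in 0%, 37.0% and 6.18%, and the CCAAT box in 60%, 59.3% and 17.1%. A match describes letters and not binding.

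In Normal striatum the members were expressed unevenly. Pcna, the sliding clamp of DNA polymerase, had the highest level at 47.8 and 58.2 TPM, followed by Anln (anillin, a scaffold of the contractile ring that also occurs in myelin) at 18.1 and 25.4 TPM and the helicase subunit Mcm7 at 22.0 and 19.5 TPM. E2f1, Tyms, Mcm4, Ccne1, Ccne2 and Mcm2 had means of 5.10 to 10.9 TPM, where E2f1 alone spread from 7.16 to 14.6 TPM, so the order among these 6 is not resolved by 2 rats. All other members had Normal means under 5 TPM. Foxm1, which encodes the mitotic forkhead factor, had 0 to 7 counts per library in all 11 rats, below the count filter, and was the only member left untested.

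Differences were tested on counts with edgeR's quasi-likelihood test fitted once to all 11 rats, with p adjusted by Benjamini-Hochberg across 15742 tested genes, and a gene was called when its adjusted p was under 0.05 and its absolute log2 fold change was at least 1. Against Normal, 40 of 46 tested members were called higher in IC, 42 in IS and 43 in IS-HA, and 40 were called higher in all 3 groups, which share the same 2 Normal rats. Of all tested genes, 10.9% were called higher in IC, 18.8% in IS and 15.1% in IS-HA, so at most 10.9% were called in all 3. In IC 0 members were called lower, beside 2.66% of all genes, in IS 1 (Anln), beside 17%, and in IS-HA 0, beside 7.71%. The median log2 fold change of the 31 mitotic members was 2.84 in IC, 3.55 in IS and 3.33 in IS-HA, and that of the 14 S phase members was 1.88, 2.57 and 2.45, beside medians of 0.00, 0.02 and 0.06 over all genes.

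**Figure D1:**
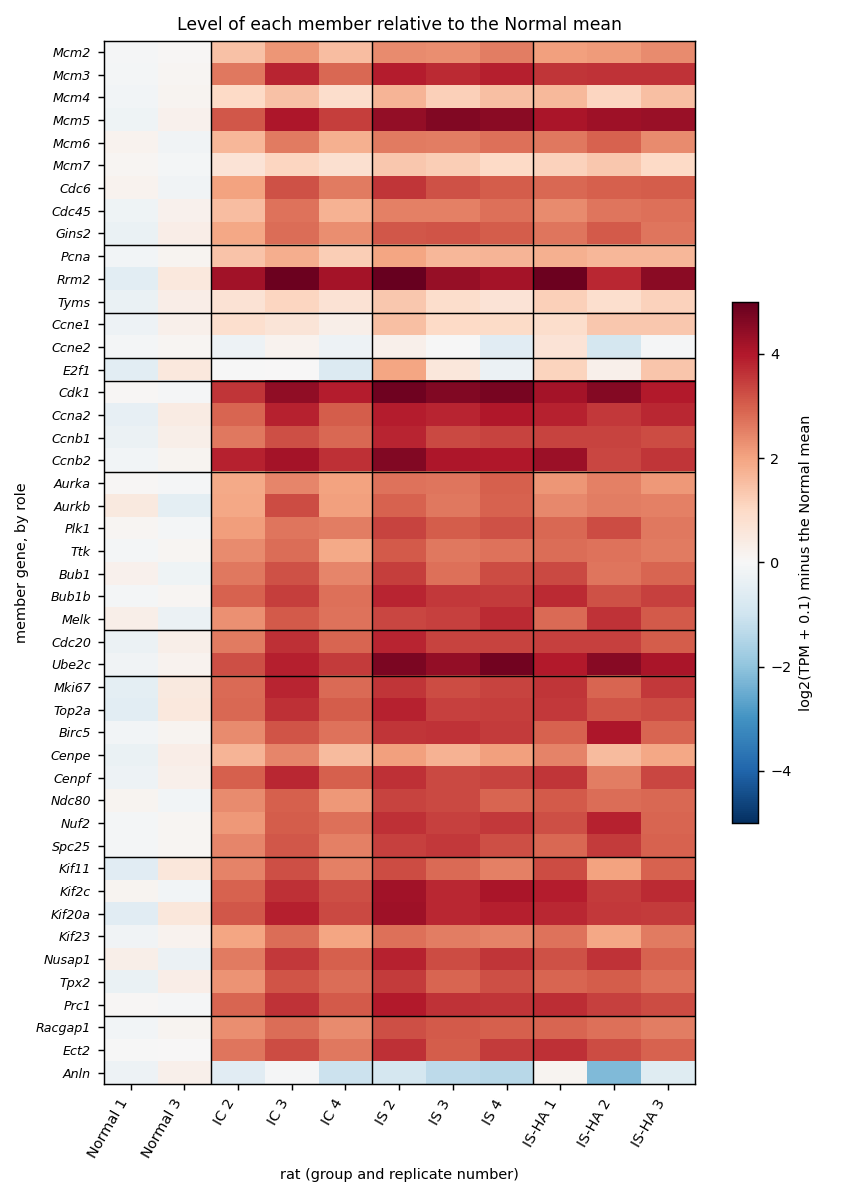
Level of the 46 tested members (rows, grouped by role, S phase members above E2f1 and mitotic members below) in each of the 11 rats (columns), as log2(TPM + 0.1) minus the mean of the 2 Normal rats. Most rows are red in all 9 hemorrhage rats. Ccne2, E2f1 and Anln have pale or blue cells, and rows with small rises, such as Ccne1, Tyms and Mcm7 in IC, are also pale.

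Origin licensing and helicase genes rose in all 3 hemorrhage groups, though Mcm7 missed the fold cutoff in IC. The Mcm2 to Mcm7 proteins form the ring that unwinds DNA, Cdc6 loads it, and Cdc45 and Gins2 belong to the active helicase. Mcm5 measured 1.34 and 1.86 TPM in Normal, 14.5, 27.8 and 18.3 in IC, 35.1, 41.8 and 38.6 in IS and 28.1, 31.9 and 33.1 in IS-HA, with every hemorrhage rat above both Normal rats. Its log2 fold change against Normal was 3.60 ± 0.33 (SE, edgeR adjusted p = 1.2e-04) in IC, 4.61 ± 0.34 (adjusted p = 3.1e-05) in IS and 4.28 ± 0.34 (adjusted p = 6.4e-05) in IS-HA. Mcm2, whose promoter holds an E2F pair beside the start, began from a higher level of 4.95 and 5.26 TPM and reached 14.4, 24.0 and 15.1 TPM in IC, 26.5, 26.1 and 30.8 in IS and 21.6, 23.0 and 26.5 in IS-HA. Its log2 fold changes were 1.74 ± 0.26, 2.47 ± 0.26 and 2.21 ± 0.26 (edgeR adjusted p = 0.00106, 8.4e-05 and 2.5e-04). The hexamer subunits did not change by equal amounts on this scale. In IS, the log2 fold change ran from 1.21 for Mcm7 and 1.51 for Mcm4 to 3.93 for Mcm3 and 4.61 for Mcm5, while the mean Normal level ran the other way, from 20.7 and 8.40 TPM to 1.91 and 1.60 TPM. The Normal level is also the base of the fold change, so these values are not independent. Cdc6, Cdc45 and Gins2 had log2 fold changes of 3.51, 2.73 and 3.33 in IS. All 9 genes of this role were called higher in IS and in IS-HA, and 8 in IC, where Mcm7 (0.79 ± 0.23, adjusted p = 0.0370) passed on p and missed the fold cutoff.

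Genes for DNA synthesis and nucleotides were also higher, to very unequal degrees. Rrm2, the regulated subunit of ribonucleotide reductase, had 0.708 and 1.60 TPM in Normal, 21.5, 34.7 and 20.9 in IC, 41.7, 23.9 and 20.8 in IS and 35.3, 15.8 and 26.5 in IS-HA. No hemorrhage rat overlapped a Normal rat, and the 3 hemorrhage groups overlapped each other. Its log2 fold change of 4.42 ± 0.45 was the highest of any member in IC (edgeR adjusted p = 1.7e-04), and it was 4.64 ± 0.45 in IS and 4.45 ± 0.45 in IS-HA. Pcna rose from the highest Normal level of the members to 142, 188 and 124 TPM in IC, 206, 165 and 169 in IS and 181, 165 and 167 in IS-HA. This was a log2 fold change of 1.45 ± 0.19, 1.78 ± 0.19 and 1.69 ± 0.19 (edgeR adjusted p = 5.8e-04, 8.6e-05 and 2.0e-04). Tyms, thymidylate synthase, had log2 fold changes of 0.77, 0.99 and 1.05, with adjusted p of 0.0338, 0.00435 and 0.00582, and so reached the fold cutoff in IS-HA alone.

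Among the cyclin E genes and E2f1, Ccne1 alone was called higher, in IS and in IS-HA. Ccne1, a cyclin E that activates Cdk2 at the start of S phase, had 6.66 and 9.67 TPM in Normal, 14.4, 12.6 and 9.81 in IC, 23.0, 16.2 and 15.6 in IS and 14.96, 20.5 and 20.6 in IS-HA. The log2 fold change was 0.53 ± 0.28 in IC (edgeR adjusted p = 0.195), and Ccne1 rose in IS by 1.18 ± 0.28 (adjusted p = 0.00628) and in IS-HA by 1.21 ± 0.28 (adjusted p = 0.00974). Without Normal replicate 1 these last values were 0.99 (adjusted p = 0.0609) and 1.02 (adjusted p = 0.0843), and neither was then a call, and in a fit of IS-HA and Normal alone the IS-HA value was 1.19 (adjusted p = 0.0598). Ccne2, the other cyclin E, had 5.98 and 6.86 TPM in Normal, 5.39, 7.25 and 5.34 in IC, 7.63, 6.37 and 4.25 in IS and 10.4, 3.45 and 6.22 in IS-HA. All 3 hemorrhage groups overlapped the Normal rats, the sign of the difference changed between scalings, and the log2 fold changes were -0.16 ± 0.33, -0.07 ± 0.33 and 0.02 ± 0.33 (edgeR adjusted p = 0.774, 0.879 and 0.973). E2f1 had 7.16 and 14.6 TPM in Normal, 10.1, 10.2 and 6.31 in IC, 40.6, 15.3 and 8.29 in IS and 22.4, 12.2 and 26.9 in IS-HA. All 3 groups overlapped Normal, and its log2 fold changes of -0.34 ± 0.51, 0.97 ± 0.52 and 0.88 ± 0.52 did not pass (edgeR adjusted p = 0.663, 0.142 and 0.205). Without IS replicate 4, the lowest IS rat, the IS value was 1.32 (adjusted p = 0.0409).

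**Figure D2:**
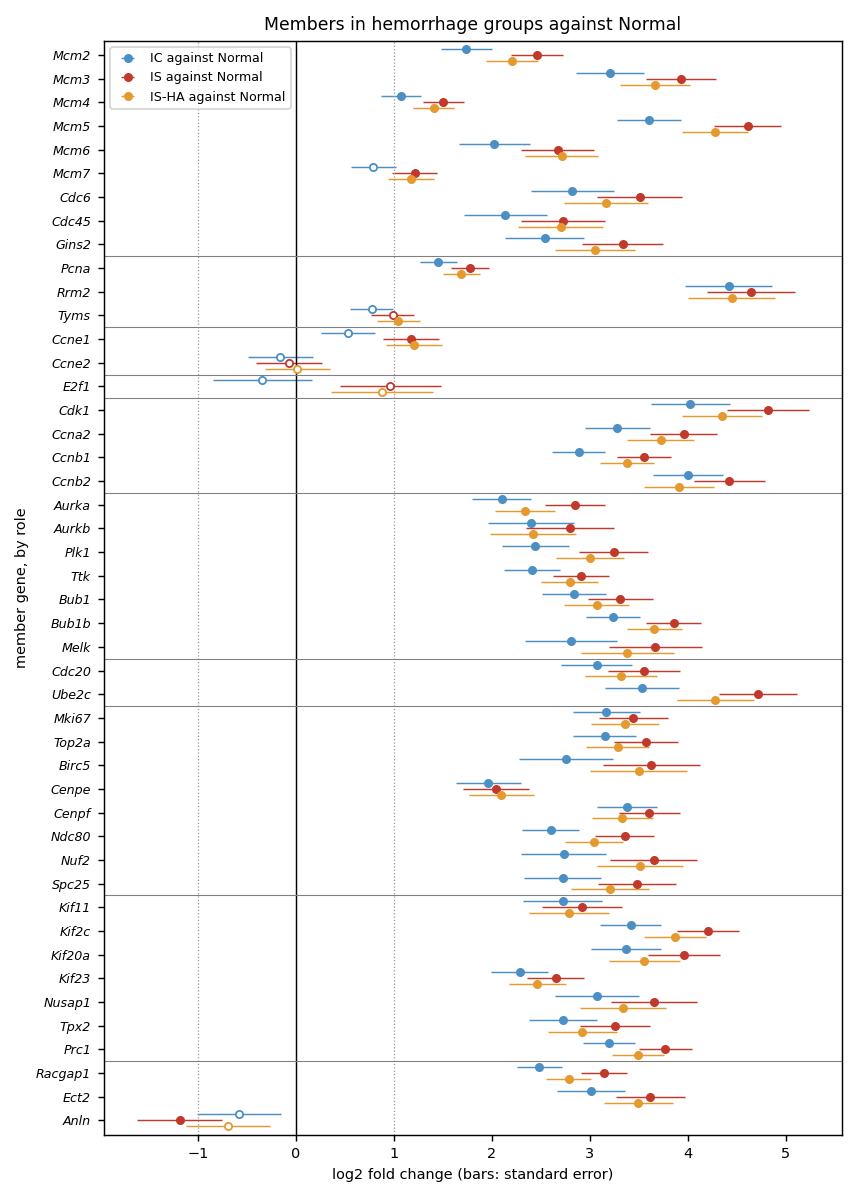
Log2 fold change of each tested member (rows, by role) in IC, IS and IS-HA against Normal, from the fit over all 11 rats, with bars of 1 standard error. Filled points are called, open points are not, and the dotted lines mark log2 fold changes of -1 and 1. Mitotic members other than Anln lie between 1.96 and 4.82.

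Among mitotic members, the kinase Cdk1 and its cyclins had the highest median fold changes as a role. Their medians were 3.64, 4.19 and 3.82 over the 4 tested genes in IC, IS and IS-HA. The 2 members that work with the anaphase promoting complex, described below, had medians of 3.30, 4.13 and 3.80. The order of these roles in IS and IS-HA is therefore not resolved. Cdk1, the kinase that starts mitosis, had 1.82 and 1.67 TPM in Normal, 22.1, 39.8 and 28.0 in IC, 54.0, 45.0 and 49.0 in IS and 32.5, 44.9 and 28.5 in IS-HA. Both Normal rats lay far below every hemorrhage rat, and the log2 fold change in IS, 4.82 ± 0.42, was the highest of all members in any comparison (edgeR adjusted p = 3.6e-05). In IC it was 4.03 ± 0.40 and in IS-HA 4.35 ± 0.41 (edgeR adjusted p = 1.7e-04 and 8.8e-05). Ccnb1, the cyclin B that Cdk1 needs for mitotic entry, went from 2.18 and 3.32 TPM in Normal to 17.2, 25.8 and 20.1 in IC, 39.1, 27.6 and 29.1 in IS and 29.2, 29.2 and 27.0 in IS-HA. Its log2 fold changes were 2.89 ± 0.27, 3.55 ± 0.28 and 3.38 ± 0.28 (edgeR adjusted p = 1.3e-04, 3.1e-05 and 6.4e-05). Ccnb2, another cyclin B with a CHR close to its start site, had 0.613 and 0.766 TPM in Normal, 11.2, 14.1 and 9.73 in IC, 19.6, 12.8 and 12.6 in IS and 14.99, 7.81 and 9.18 in IS-HA. It rose by 4.00 ± 0.35, 4.43 ± 0.36 and 3.91 ± 0.36 on the log2 scale (edgeR adjusted p = 1.2e-04, 3.1e-05 and 8.1e-05), against 3.28, 3.96 and 3.72 for Ccna2, the cyclin A of S phase and G2.

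Mitotic kinases and spindle checkpoint genes, 7 members, were all called higher in each hemorrhage group. Aurkb, the Aurora kinase of the chromosomal passenger complex, had 5.54 and 2.83 TPM in Normal, 15.5, 38.4 and 16.7 in IC, 31.5, 24.9 and 31.3 in IS and 21.5, 23.5 and 23.3 in IS-HA. The groups did not overlap Normal, and IC replicate 3 was the highest of the 11 rats. The log2 fold changes were 2.40 ± 0.44, 2.80 ± 0.45 and 2.42 ± 0.44 (edgeR adjusted p = 0.00388, 7.4e-04 and 0.00273), and without Normal replicate 3 the IC value was 1.95 (adjusted p = 0.0622). Aurka, the spindle pole Aurora kinase, had 3.97 and 3.66 TPM in Normal, 14.6, 21.1 and 15.6 in IC, 25.6, 24.96 and 30.9 in IS and 17.7, 22.5 and 17.3 in IS-HA, with log2 fold changes of 2.101 ± 0.30, 2.85 ± 0.31 and 2.34 ± 0.30 (edgeR adjusted p = 9.0e-04, 8.7e-05 and 4.0e-04). Bub1b, which encodes the checkpoint protein BubR1, rose by 3.24, 3.85 and 3.66, the highest of the role in IS, whereas its partner kinase Bub1 rose by 2.84, 3.31 and 3.07. Plk1, the Polo kinase of mitotic entry and spindle poles, rose by 2.44, 3.25 and 3.00, the checkpoint kinase Ttk by 2.41, 2.91 and 2.79, and Melk by 2.81, 3.67 and 3.38.

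Both members that work with the anaphase promoting complex, the ubiquitin ligase that ends mitosis, rose. Ube2c, the ubiquitin-conjugating enzyme of that complex, had 2.64 and 3.37 TPM in Normal, 28.5, 45.4 and 35.1 in IC, 80.7, 65.4 and 88.0 in IS and 48.4, 72.4 and 52.4 in IS-HA. No group overlapped Normal, every IS rat exceeded every IC rat, and the log2 fold changes against Normal were 3.53 ± 0.38, 4.71 ± 0.40 and 4.28 ± 0.39 (edgeR adjusted p = 2.2e-04, 3.6e-05 and 8.1e-05). Cdc20, the activator of the complex, rose by 3.07, 3.55 and 3.32.

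All 8 chromosome and kinetochore genes were called higher in each group. Mki67 encodes Ki-67, the chromosome surface protein used in histology as a mark of cycling cells. It had 1.13 and 2.26 TPM in Normal, 12.0, 23.5 and 12.0 in IC, 20.4, 16.2 and 17.7 in IS and 20.4, 12.8 and 19.5 in IS-HA. The 9 hemorrhage rats lay above both Normal rats and overlapped each other, the highest being IC replicate 3. Log2 fold changes were 3.17 ± 0.34, 3.45 ± 0.35 and 3.36 ± 0.35 (edgeR adjusted p = 2.2e-04, 6.2e-05 and 1.2e-04). Top2a, the topoisomerase that untangles sister chromatids, had 1.83 and 3.81 TPM in Normal, 20.2, 34.8 and 22.5 in IC, 39.9, 29.1 and 29.8 in IS and 31.8, 24.1 and 26.5 in IS-HA, and rose by 3.15 ± 0.32, 3.57 ± 0.32 and 3.29 ± 0.32 on the log2 scale (edgeR adjusted p = 1.7e-04, 3.7e-05 and 9.7e-05). Birc5 encodes survivin, a partner of Aurora B, and measured 2.01 and 2.45 TPM in Normal, 11.7, 20.3 and 15.04 in IC, 27.8, 28.2 and 25.8 in IS and 18.0, 37.8 and 17.1 in IS-HA. IS-HA replicate 2 was the highest rat for Birc5, above every IS rat, while the other IS-HA rats were below every IS rat. Birc5 rose by 2.76 ± 0.48, 3.63 ± 0.50 and 3.50 ± 0.49 (edgeR adjusted p = 0.00299, 3.2e-04 and 6.5e-04). Of the kinetochore genes, the motor Cenpe had the smallest rise of the mitotic members that were called higher, from 0.770 and 1.31 TPM to 3.48, 5.95 and 3.25 in IC, 4.46, 3.64 and 4.55 in IS and 6.16, 3.23 and 4.17 in IS-HA, with log2 fold changes of 1.96 ± 0.33, 2.04 ± 0.34 and 2.098 ± 0.34 (edgeR adjusted p = 0.00249, 8.5e-04 and 0.00134). Cenpf rose by 3.38, 3.61 and 3.33. Ndc80, Nuf2 and Spc25, subunits of the complex that holds microtubules at the kinetochore, had log2 fold changes between 2.60 and 3.65 over the 3 groups.

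Spindle motors and microtubule genes, 7 members, were likewise all called higher, with medians of 3.07, 3.65 and 3.34. Kif2c, a kinesin that takes microtubules apart, rose by 3.42, 4.21 and 3.87, and Kif20a, a kinesin of the central spindle, by 3.37, 3.96 and 3.56. Prc1, which bundles the central spindle, had the highest level of the role, 4.18 and 3.93 TPM in Normal and 65.4, 51.0 and 49.6 TPM in IS, and rose by 3.19, 3.77 and 3.49. The bipolar spindle motor Kif11, the cytokinesis motor Kif23, and the microtubule proteins Nusap1 and Tpx2 had log2 fold changes between 2.28 and 3.65 over the 3 groups. The cytokinesis regulators Racgap1 and Ect2, which turn on contraction of the cleavage furrow, rose by 3.15 and 3.62 in IS.

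Anln, whose product joins the same furrow, went the other way. It had 18.1 and 25.4 TPM in Normal, 14.5, 20.8 and 10.2 in IC, 11.4, 8.67 and 8.17 in IS and 23.4, 4.54 and 14.2 in IS-HA. All 3 IS rats were below both Normal rats, while IC and IS-HA overlapped Normal, and IS-HA spanned from the lowest to nearly the highest level of the 11 rats. Anln fell by 1.19 ± 0.43 on the log2 scale in IS (edgeR adjusted p = 0.0406), and its values in IC and IS-HA were -0.58 ± 0.43 and -0.69 ± 0.43 (adjusted p = 0.363 and 0.228). The call in IS did not hold with library size alone (-1.05, adjusted p = 0.0812) or limma on log2(TPM + 1) (-1.12, adjusted p = 0.101), nor without any of Normal replicates 1 or 3, IC replicate 2, IS replicates 2, 3 or 4 or IS-HA replicate 3, where adjusted p ran from 0.0538 to 0.199. Without IS-HA replicate 1, Anln was called lower in IS-HA (-1.23, adjusted p = 0.0354).

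**Figure D3:**
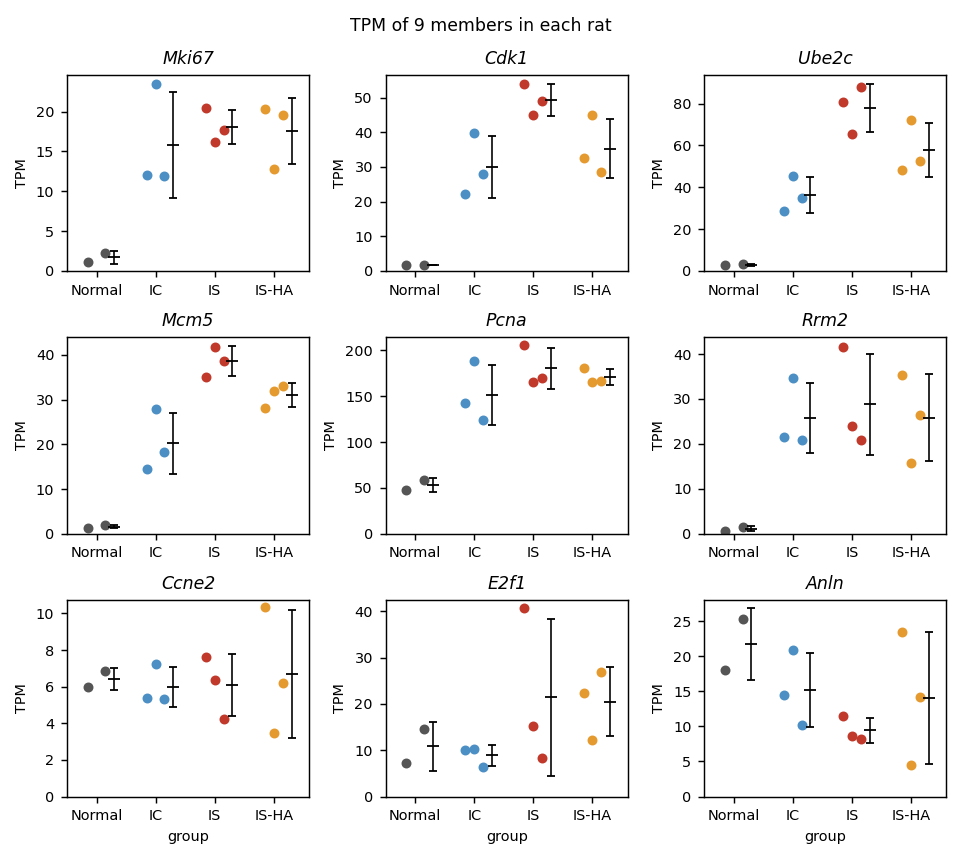
TPM of 9 members in each rat (points), with the group mean and SD beside them in black (2 Normal rats, 3 in each other group). Mki67, Cdk1, Ube2c, Mcm5, Pcna and Rrm2 lie above both Normal rats in all 9 hemorrhage rats, whereas Ccne2, E2f1 and Anln overlap Normal in at least 1 group.

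Members with a higher level in Normal had smaller fold changes. The 9 tested members with a Normal mean of 5 TPM or more (7 S phase genes, E2f1 and Anln) had median log2 fold changes of 0.77, 1.18 and 1.18 in IC, IS and IS-HA, compared with 2.84, 3.55 and 3.33 for the 37 members below that level (7 S phase and 30 mitotic). The cutoff of 5 TPM was chosen after the values were seen. Each fold change is taken against the same 2 Normal rats that set this level, so such a relation is partly built in. Thus S phase and mitotic members differed in baseline as well as in fold, and the role of baseline in the difference between the medians was not tested.

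Whether the larger collagenase dose went with more cell cycle RNA was addressed by comparing IS with IC. None of 46 members was called by edgeR, as for all genes (0% higher, 0% lower), but the members lay mainly on the higher side in IS. The log2 fold change was positive for 14 of 14 S phase members, with a median of 0.62, and for 30 of 31 mitotic members, with a median of 0.59, beside a median of -0.00 over all genes, of which 49.9% were positive. Members share the same rats and are not independent, so these counts were not tested. In TMM-normalized counts, every IS rat was above every IC rat for 26 members (8 S phase and 18 mitotic) of 46 and below for 0, whereas this held for 19.2% and 18.7% of all genes. At an unadjusted p under 0.05, 6 S phase members, 17 mitotic members and E2f1 were higher in IS and none was lower, beside 10.5% of all genes higher and 11.7% lower. With the fold cutoff added, 3 members remained, Mcm5, Ube2c and E2f1, beside 3.37% of all genes higher and 5.15% lower. DESeq2's Wald test called 2 members higher and 0 lower, beside 1.63% of all genes higher and 2.2% lower, and limma on log2 TPM called 0 members and 0% of all genes.

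Mcm5 and Ube2c had the lowest adjusted p of the members in this comparison. Mcm5 was higher in each IS rat (lowest 35.1 TPM) than in any IC rat (highest 27.8 TPM), with a log2 fold change of 1.01 ± 0.24 (edgeR adjusted p = 0.146). Ube2c likewise did not overlap (lowest IS rat 65.4 TPM, highest IC rat 45.4 TPM), at 1.18 ± 0.28 (edgeR adjusted p = 0.146). Without IS-HA replicate 2, which belongs to neither group but enters the shared estimate of spread and the count filter (15897 genes tested without it), both were called, Mcm5 at 1.01 (adjusted p = 0.0252) and Ube2c at 1.18 (adjusted p = 0.0208), along with 2.19% of all genes higher and 3.87% lower. Cdk1 (0.79 ± 0.28), Ccnb1 (0.67 ± 0.21), Aurka (0.75 ± 0.24), Mcm2 (0.72 ± 0.21) and Birc5 (0.87 ± 0.37) had adjusted p of 0.172, 0.156, 0.161, 0.151 and 0.207. The proliferation marker Mki67 differed by 0.28 ± 0.26 (adjusted p = 0.520), and Top2a, Aurkb, Ccnb2, Pcna, Rrm2, Cenpe, Ccne1 and Ccne2 by 0.42, 0.40, 0.42, 0.33, 0.23, 0.08, 0.64 and 0.09, with adjusted p from 0.181 to 0.871. E2f1 had the largest value, 1.31 ± 0.46 (adjusted p = 0.170), with IS replicate 2 at 40.6 TPM and IS replicate 4 within the IC range. Anln was the only member with a negative value, -0.61 ± 0.39 (adjusted p = 0.360).

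IC replicate 3 stood apart from the other IC rats. In TPM it was the highest IC rat for 45 of 46 tested members, and in normalized counts for 43, and it was also the deepest library. Its summed level of striatal neuron markers was 3002 TPM, beside 6055 and 5884 TPM in IC replicates 2 and 4 and 1466 to 3869 TPM in IS. The part of depth or of tissue make-up in the values of this rat was not tested. With IC replicate 3 left out, the medians of IS against IC were 0.79 for S phase and 0.80 for mitotic members. Without IC replicate 2 they were 0.39 and 0.47, and 0 members were called in either case.

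**Figure D4:**
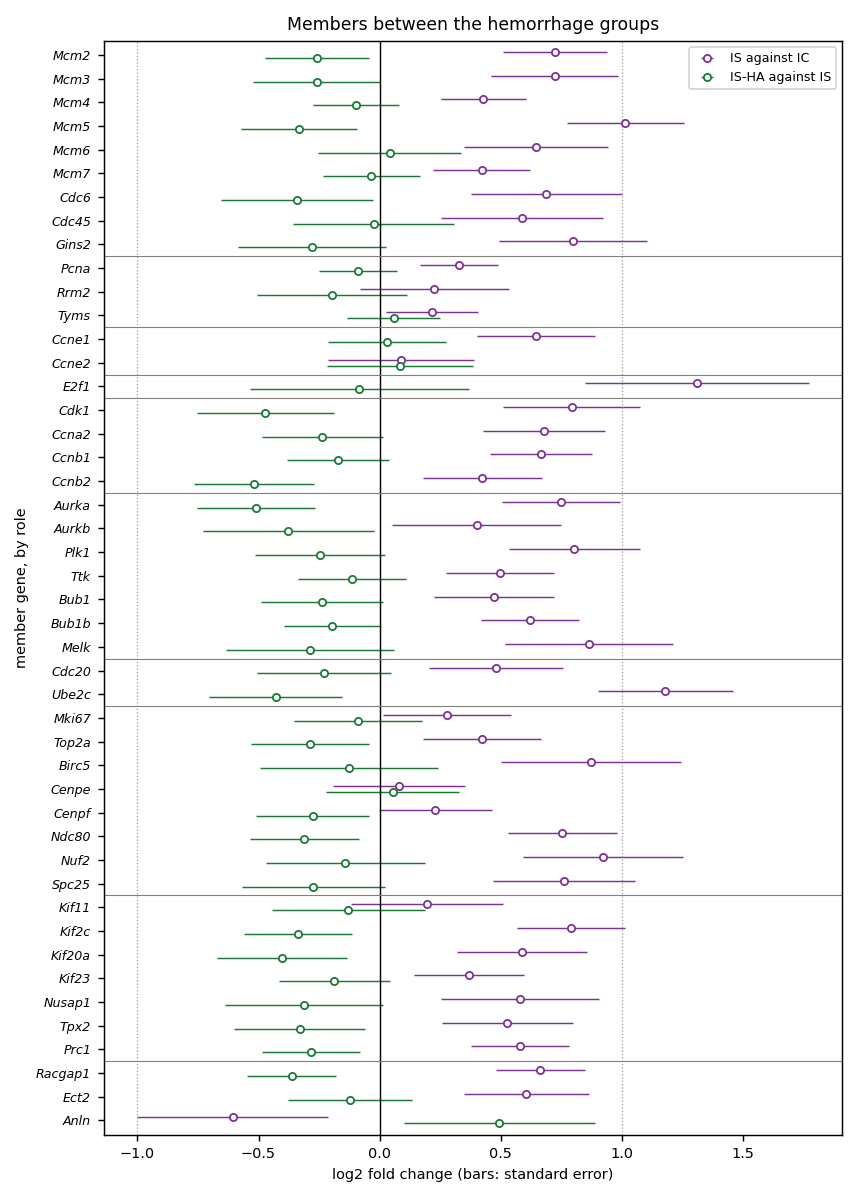
Log2 fold change of each tested member (rows, by role) in IS against IC and in IS-HA against IS, with bars of 1 standard error. No point is filled because none was called, and the dotted lines mark -1 and 1. Most values lie above 0 for IS against IC and slightly below 0 for IS-HA against IS, and Anln lies on the opposite side in both.

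Whether removal of the hematoma changed these genes was addressed by comparing IS-HA with IS. edgeR called 0 of 46 members in either direction, beside 0.00635% of all genes higher and 0% lower, DESeq2 called 0, beside 0.28% higher and 0.121% lower, and limma on log2 TPM called 0 members and 0% of all genes. No member reached an unadjusted p under 0.05, which 5.58% of all genes did as higher and 3.36% as lower, or 2.74% and 0.908% with the fold cutoff added. Most values were slightly below 0, those of 10 of 14 S phase members, with a median of -0.09, and of 29 of 31 mitotic members, with a median of -0.27. The median over all genes was 0.05, and 55.8% of all genes were positive. Members were measured in the same rats and are not independent, so these counts were not tested. Groups overlapped for 42 members. The 4 mitotic members Ccna2, Top2a, Kif20a and Racgap1 were lower in every IS-HA rat than in every IS rat in normalized counts and 0 were higher, beside 5.42% and 4.96% of all genes.

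The largest decreases in this comparison were those of Ccnb2 (-0.52 ± 0.25, edgeR adjusted p = 0.563) and Aurka (-0.51 ± 0.24, adjusted p = 0.563). For Ccnb2 the IS-HA rats ran from 7.81 to 14.99 TPM and the IS rats from 12.6 to 19.6 TPM. In TPM, each IS-HA rat was below each IS rat for Aurka (17.3 to 22.5 against 24.96 to 30.9), and for Cdk1 the highest IS-HA rat (44.9) was just below the lowest IS rat (45.0), at -0.47 ± 0.28 (adjusted p = 0.603). Mcm5 gave -0.33 ± 0.24 (adjusted p = 0.658), Ube2c -0.43 ± 0.27 (0.623) and Mcm2 -0.26 ± 0.21 (0.697). Values nearer 0 were those of Mki67 (-0.09 ± 0.26), Pcna (-0.09 ± 0.16), Ccnb1 (-0.17 ± 0.21), Rrm2 (-0.20 ± 0.31), Birc5 (-0.13 ± 0.37) and E2f1 (-0.08 ± 0.45). Top2a and Aurkb were at -0.29 and -0.38. Positive values were those of Anln (0.49 ± 0.40, adjusted p = 0.691), Ccne2 (0.08 ± 0.30), Tyms (0.06), Cenpe (0.05), Mcm6 (0.04) and Ccne1 (0.03). Two-sided exact permutation tests of TPM for 19 members in both comparisons, 38 tests in all, cannot give a p below 0.1 with 3 rats against 3, and the lowest Benjamini-Hochberg adjusted value was 0.317.

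IS-HA replicate 2, the smallest library, differed from the other IS-HA rats in a way that followed gene length. The ratio of counts to TPM gives each gene's length relative to others, and the Spearman correlation over the 46 tested members between that length and the log2 ratio of IS-HA replicate 2 to the mean of replicates 1 and 3 was -0.57. Genes are not independent replicates, and all points share the same 3 libraries. Over 13059 genes with at least 10 counts in every rat the correlation was -0.52. The short transcripts of Ube2c, Spc25, Cdk1 and Birc5 were higher in replicate 2 by 0.90, 0.96, 0.93 and 1.48 on the log2 scale, and the long ones of Anln, Cenpf and Mki67 were at -1.68, -0.53 and -0.26. Not every member followed length, as the short Ccnb2 was at -0.26 and the long Ect2 and Top2a were at 0.28 and 0.098. Without this rat, the medians of IS-HA against IS were -0.24 for S phase and -0.39 for mitotic members, and 0 members were called, beside 2.48% of all genes higher and 0.541% lower. Leaving out IS replicate 2 or 3 gave S phase medians of -0.035 and -0.22, and leaving out IS-HA replicate 3 gave a mitotic median of -0.17. Over the same members, length correlated with the log2 fold change by 0.38 in IS-HA against IS and by -0.35 in IS against IC, and the part of length in these comparisons was not tested.

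Genes of the same machinery outside the 47 members were also mostly called higher against Normal in IS and IS-HA. Of 27 other replication genes, 13 were called higher in IC, 19 in IS and 19 in IS-HA, and 0 lower, and of 33 tested other mitosis genes 28, 31 and 30 were called higher and 0 lower. Of all genes, 10.9, 18.8 and 15.1% were called higher in IC, IS and IS-HA, and 2.66, 17 and 7.71% lower. Tk1, thymidine kinase of the nucleotide salvage path, had 4.77 and 5.24 TPM in Normal, 26.9, 45.7 and 34.1 in IC, 63.5, 52.9 and 60.7 in IS and 46.5, 56.7 and 44.3 in IS-HA, and log2 fold changes of 2.77, 3.57 and 3.31. Mcm10, a helicase activator, rose by 2.77, 3.49 and 3.06, and Uhrf1, which keeps DNA methylation through replication, by 2.04, 2.80 and 2.46. The replication genes with the largest values were Dbf4, the activator of the Cdc7 kinase, in IC (2.95) and IS (3.70) and the GINS subunit Gins1 in IS-HA (3.43). Cenpa, the centromere histone, rose by 3.57, 4.10 and 3.81, the spindle protein Hmmr by 1.66, 2.16 and 1.96, and the largest values of the mitosis list were those of Ckap2 in IC (3.85) and Cdca3 in IS (4.81) and IS-HA (4.45).

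Upstream regulators moved less evenly. Of 7 G1 cyclins and their kinases, 2, 5 and 4 were called higher in IC, IS and IS-HA and 0 lower. Beside each list of this paragraph, 10.9, 18.8 and 15.1% of all genes were called higher and 2.66, 17 and 7.71% lower. Ccnd1, the cyclin D that answers growth signals, had 22.2 and 23.0 TPM in Normal, 62.4, 146 and 86.3 in IC, 139.6, 147 and 160.1 in IS and 94.0, 196 and 127 in IS-HA. It rose by 2.06 ± 0.44, 2.74 ± 0.45 and 2.67 ± 0.45 on the log2 scale (edgeR adjusted p = 0.00876, 8.7e-04 and 0.00180), but in IC the call was lost without Normal replicate 1 (adjusted p = 0.0667) or 3 (0.1003). Its partner kinase Cdk4 rose by 1.503 in IS and 1.12 in IS-HA, and its IC value lay just under the fold cutoff (adjusted p = 0.00435). Of 8 inhibitors of cyclin-dependent kinases, which hold the cycle back, 4, 6 and 6 were called higher and 0 lower. Cdkn1a, which encodes p21, had 14.2 and 8.004 TPM in Normal, 15.9, 29.2 and 21.1 in IC, 49.9, 51.4 and 51.1 in IS and 36.5, 43.9 and 44.8 in IS-HA. Every IS and IS-HA rat was above every IC rat, and the log2 fold changes were 0.92 ± 0.32, 2.19 ± 0.34 and 1.90 ± 0.33 against Normal (edgeR adjusted p = 0.0729, 6.2e-04 and 0.00234) and 1.28 ± 0.28 in IS against IC (adjusted p = 0.143, or 0.0241 without IS-HA replicate 2). Without Normal replicate 3 the IC value of Cdkn1a was 0.51 (adjusted p = 0.479), without Normal replicate 1 it was 1.47 (0.0410), without IC replicate 2 it was 1.12 (0.0419), and with library size alone it was 1.06 (0.0389). Cdkn2a had the largest value of this list against Normal in each group, 3.14 ± 1.02 in IC (adjusted p = 0.0559), 4.08 ± 1.01 in IS (0.00752) and 3.82 ± 1.02 in IS-HA (0.0178). Of 14 retinoblastoma, E2F and MuvB regulators, 4, 5 and 5 were called higher, led by E2f8, a repressor E2F, in IC (3.06) and by Mybl2, which encodes B-Myb, in IS (3.72) and IS-HA (3.41). No gene of these 5 lists was called by edgeR in IS against IC or in IS-HA against IS. Of all genes, 0% and 0.00635% were called higher there, and 0% lower in both. In IS against IC the largest values per list were those of Orc1 (1.29), Cenpm (1.07), Ccnd3 (0.75), Cdkn1a and Mybl2 (0.89). In IS-HA against IS they were those of Orc1 (-1.16), Cep55 (-0.75), Ccnd3 (-0.52), Cdkn1c (0.47) and E2f4 (-0.36).

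Cell type markers were read beside the members because several cell types of the injured striatum can divide. For every marker list, the shares of all genes called higher in IC, IS and IS-HA were 10.9, 18.8 and 15.1%. Those called lower were 2.66, 17 and 7.71%. As the mean log2 CPM of a list relative to Normal, the mitotic members stood at 2.39, 3.08 and 2.66 in the 3 IC rats, 3.37, 3.15 and 3.34 in the IS rats and 3.05, 3.21 and 2.80 in the IS-HA rats. The S phase members stood at 1.54, 2.18 and 1.78, then 2.46, 2.33 and 2.38, then 2.18, 2.43 and 2.16. Within IC, replicate 3 was the highest rat on both scores. Microglia and macrophage markers, of which 11, 10 and 11 of 12 were called higher in IC, IS and IS-HA, stood at 2.64, 2.94 and 3.02 in IC, 3.08, 3.18 and 3.56 in IS and 2.93, 3.29 and 2.99 in IS-HA. Their summed level ran from 270.9 to 387.6 TPM in Normal, 2234 to 2964 in IC, 3991 to 5091 in IS and 2918 to 4793 in IS-HA. Neutrophil markers, all 5 called higher in each group, ran from 4.91 to 5.04 TPM in sum in Normal, 79.8 to 254.3 in IC, 490.1 to 692.1 in IS and 159.7 to 854.5 in IS-HA, with IS-HA replicate 2 the highest rat. In each group against Normal, 0 of 6 endothelial and 0 of 4 oligodendrocyte precursor markers were called and 1 of 5 astrocyte markers was called higher. The summed astrocyte level ran from 933.2 to 1037 TPM in Normal, 4374 to 6889.9 in IC, 2877 to 4728 in IS and 3603 to 4797 in IS-HA, while the mean log2 scores of that list were 0.68, 0.01 and 0.52. Of 8 striatal neuron markers, 1, 7 and 6 were called lower in IC, IS and IS-HA. In the T and NK cell list 0, 2 and 1 of 4 markers were called higher and the summed level ran from 0.871 to 1.58 TPM in Normal, 4.05 to 5.82 in IC, 11.9 to 18.0 in IS and 2.36 to 18.1 in IS-HA, in the pericyte and fibroblast list 4, 4 and 4 of 6 were called higher and 0, 1 and 1 lower, and in the neural progenitor and neuroblast list 1, 1 and 1 of 6 were called higher and 0, 2 and 0 lower. Neither of 2 tested erythroid markers was called. In IS against IC, median log2 fold changes were 0.69 for microglia and macrophage, 1.92 for neutrophil and 1.41 for T and NK markers. The medians were 0.47 for pericyte and fibroblast, -0.0031 for endothelial, -0.21 for oligodendrocyte precursor and -0.50 for astrocyte markers. Those of neural progenitor and striatal neuron markers were -0.45 and -0.92, beside 0.62 and 0.59 for S phase and mitotic members. The part of microglia, macrophages, neutrophils or other cells in the rise of the members, or in IS against IC, was not tested.

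**Figure D5:**
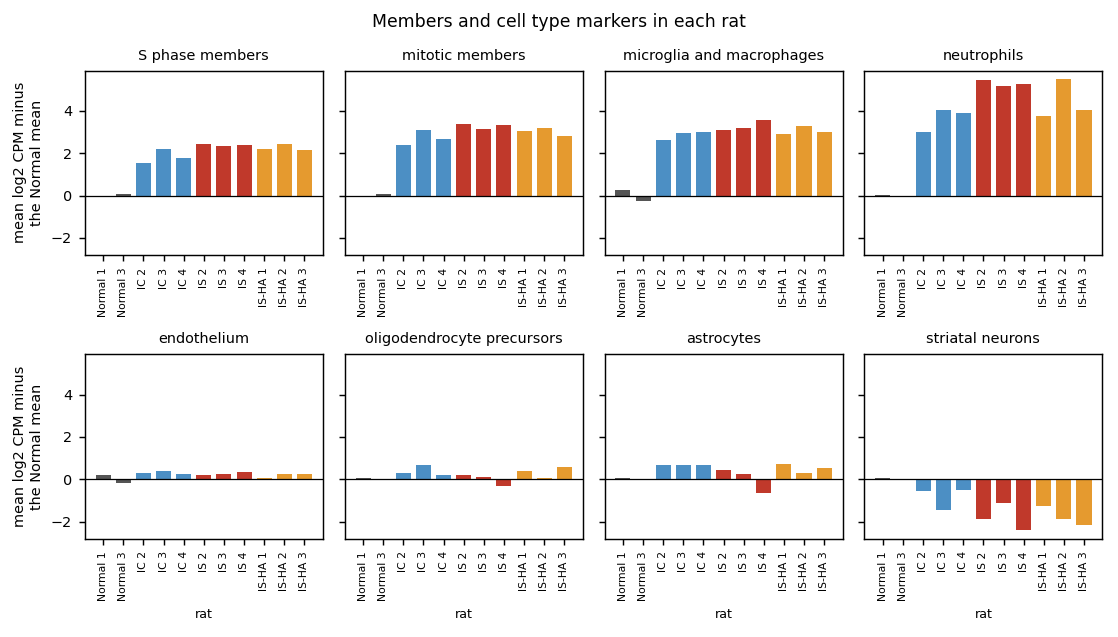
Mean log2 CPM of the S phase and mitotic members and of 6 marker lists in each of the 11 rats (bars), relative to the mean of the 2 Normal rats. Bars of the members and of the microglia and macrophage and neutrophil lists lie above 0 in all 9 hemorrhage rats, endothelial group means lie between 0.19 and 0.30, and neuron bars lie below 0.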

How the data were processed

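Polyadenylated RNA from 11 rats was sequenced with a stranded kit (whether counting used strand is not given in the sources used here). The authors deposited 1 table with a raw read count and a TPM value per gene and rat. The submitters' processing notes name fastp 0.20.0, HISAT2 2.1.0, SAMtools 1.9, featureCounts and the build mRatBN7.2. Deposited counts were tested with edgeR 4.0.16 (R 4.3.3) after TMM scaling and filterByExpr, which kept 15742 of 30560 genes, in 1 quasi-likelihood fit over 4 groups with a common dispersion of 0.0691. Standard errors are the absolute log2 fold change over the square root of F. IC, IS and IS-HA were each compared with Normal, IS with IC, and IS-HA with IS. The TPM values deposited by the authors give levels. Scores used a prior count of 2.

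Every member is named. Full values are given for 14 core members fixed by name and for the 2 largest and 2 smallest fold changes per comparison, and other lists give fixed names plus the largest absolute change. The members and lists were chosen with earlier results of these data known. GEO's labels give separate rats as replicates.

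Alternatives were DESeq2 1.42.0, other scalings and filters, limma 3.58.1 on log2(TPM + 1) and log2(TPM + 0.1), a replicate block, other call rules, each rat left out in turn, and a promoter window of 100 bases. The testing steps were checked on counts simulated with the common dispersion for every gene and changes in IS alone. That check cannot show how the tests behave where spread differs between genes or a rat is outlying. Intervals and the CPM of 3 counts cover counting error only. Lists matched by symbol lacked Cks2, and promoters came from RefSeq by symbol.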

Additional observations from a re-analysis of the deposited data

How the results depend on the processing

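Normal had 2 rats and no injected control, and the smallest library limits the precision of low genes such as Foxm1. Against Normal, leaving out 1 rat gave 37 to 40 members higher in IC (37 without Normal replicate 3), 41 to 44 in IS and 41 to 43 in IS-HA, 0 to 1 lower in IS (0 without either Normal rat or any IS rat, among others) and 0 to 1 lower in IS-HA (1 without IS-HA replicate 1), and 0 to 2 higher in IS than IC (2 without IS-HA replicate 2). The medians of S phase members then ran from 2.44 to 2.64 in IS and 2.24 to 2.56 in IS-HA against Normal and from -0.24 to -0.035 in IS-HA against IS, and those of mitotic members from 3.44 to 3.63 in IS and 3.04 to 3.43 in IS-HA against Normal. On log2(TPM + 1), where low genes are compressed by construction, S phase medians were 1.43, 1.88 and 1.77 in IC, IS and IS-HA and mitotic medians 2.24, 2.83 and 2.54, and on log2(TPM + 0.1) the mitotic median in IS was 3.43. With library size alone the IS medians were 2.69 and 3.69, and with at least 10 counts in every rat, which tests fewer genes, the S phase medians were 2.45 in IS and 2.20 in IS-HA. With library size, the replicate block and limma at either pseudocount, 0 members were lower in IS than Normal, and the cause was not tested. DESeq2 gave 2 members higher in IS than IC (1.63% of all genes higher, 2.2% lower) and the unadjusted p with the fold cutoff 3 (3.37% and 5.15%).

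Signs changed for values near 0. Ccne2 was at 0.068 in IS against Normal with library size, at -0.025, -0.02, -0.052 and -0.077 in IS-HA against Normal with DESeq2's size factors, DESeq2 and limma at both pseudocounts, and at -5e-04 and -0.0043 in IS against IC with limma. Ccne1 was at -0.0013 with DESeq2 and E2f1 at 0.15 and 0.17 with limma in IS-HA against IS. With 1 rat left out, E2f1 ran from -0.72 to 0.17 in IC against Normal, Ccne2 from -0.21 to 0.093 in IS and from -0.39 to 0.24 in IS-HA against Normal, and in IS against IC Rrm2 ran from -0.070 to 0.45, Ccne2 from -0.050 to 0.25 and Cenpe from -0.055 to 0.36. In IS-HA against IS the ranges were -0.79 to 0.11 for Birc5, -0.43 to 0.10 for Rrm2, -0.19 to 0.22 for Ccne1, -0.32 to 0.31 for Ccne2, -0.44 to 0.69 for E2f1, -0.043 to 0.86 for Anln and -0.59 to 0.20 for Ccnd1.

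Replicate numbers are shared between groups but come from different animals. Deviations of same-numbered rats correlated by -0.34 to 0.36 between IC and IS (mean 0.03). The values were -0.48 to -0.089 between IS and IS-HA (mean -0.28) and -0.36 to 0.048 between IC and IS-HA (mean -0.16). Deviations from the mean of 2 or 3 rats are constrained, so these correlations cannot decide about pairing. The numbers were not taken as pairs. With the replicate block, 34 members were called higher in IC, 41 in IS and 43 in IS-HA than in Normal, and Aurkb (adjusted p = 0.0517), Birc5 (0.0544) and Ccnd1 (0.150) in IC, Ccne1 in IS (0.0659) and Anln in IS (-0.54, 0.454) were not called. The S phase median in IS was then 2.48, Ccne2 was at 0.29 in IC and 0.37 in IS against Normal, and in IS-HA against IS Birc5 was at 0.0041, Ccne2 at -0.29, Anln at -0.083 and Ccnd1 at 0.10.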
